A study of Mus musculus with 155 samples.

Results

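The chaperone and heat shock genes of this study were the genes of the deposited expression table whose symbols start with Hsp, Dnaj, Cct2 to Cct8, Bag1 to Bag6, Fkbp, Ppia to Ppil or Pfdn. The rule found 36 genes of 3422. They were 3 Hsp90 family genes, 4 Hsp70 and Hsp110 family genes, 10 J-domain genes, 1 Bag co-chaperone gene, 1 mitochondrial chaperonin gene (Hspd1) with its processed pseudogene Hspd1-ps3, 3 subunits of the CCT chaperonin, 2 prefoldin subunits, 5 FK506-binding prolyl isomerases, 5 cyclophilins and Hspb11. Hspb11 carries a heat shock symbol but encodes an intraflagellar transport subunit.

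Gene expression was measured in 155 single cells of mouse brain by SMART-Seq2, which copies polyadenylated RNA of a cell over its full length, in tissue of the subventricular zone, where new neurons are born, and of the corpus callosum, a white matter tract. All mice were 8 to 10 weeks old, with 5 mice for each condition. NB (37 cells) came from uninjected healthy mice of strain CB6-Tg(Gad1-EGFP)G42Zjh/J and was gated on the Gad67-GFP reporter of GABAergic cells, and NBL (27 cells) came from the same strain and gate 6 days after injection of LPC, a lipid that strips myelin. O (29 cells) came from uninjected healthy mice of strain Olig2-tdTomato TH39Gsat/Mmcd and was gated on the Tomato reporter of the oligodendrocyte lineage, and OL (22 cells) came from that strain and gate 6 days after LPC. OligNBL (40 cells) was positive for both reporters and came from a cross of the 2 strains, 6 days after LPC. The titles of the OligNBL cells carry a control mark although their lesion state is given as lesion. Strain and gate cannot be told apart in any comparison between gates, and lesion and injection cannot be told apart in any comparison with uninjected mice.

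Molecular chaperones keep proteins from misfolding and help them to fold. Hsp70 proteins bind exposed hydrophobic stretches in cycles of ATP hydrolysis that J-domain proteins start and Bag proteins help to end. Hsp90 receives clients from Hsp70 and finishes the maturation of kinases and hormone receptors. The ring-shaped CCT chaperonin folds actin and tubulin, which prefoldin delivers to it, and prolyl isomerases of the Fkbp and cyclophilin families turn proline bonds. In the endoplasmic reticulum a separate set works on secreted and membrane proteins: Hspa5 (BiP), its J-domain partner Dnajb11, the Hsp90 form Hsp90b1 (GRP94) and the cyclophilin Ppib. Oligodendrocytes send large amounts of membrane protein and lipid through that compartment to build myelin.

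Promoters of 3 endoplasmic reticulum genes are shown because Hspa5, Hsp90b1 and Dnajb11 were all higher in O than in NB. The windows come from RefSeq on GRCm38.p6 and reach from 250 bases before to 50 bases after a gene's RefSeq start. For Hspa5 and Hsp90b1 that start lies inside the GENCODE gene span given below. Part of each of these 2 stretches therefore lies within the gene as placed there. Each line gives 220 bases of that window, 5′ to 3′ on the gene's strand. Capitals mark the ER stress element, CCAAT followed by 9 bases of any kind and CCACG, searched on both strands. The stretch of Hspa5 is chr2:34771870-34772089 on the plus strand, that of Hsp90b1 is chr10:86705445-86705664 on the minus strand, and that of Dnajb11 is chr16:22857625-22857844 on the plus strand.
Hspa5: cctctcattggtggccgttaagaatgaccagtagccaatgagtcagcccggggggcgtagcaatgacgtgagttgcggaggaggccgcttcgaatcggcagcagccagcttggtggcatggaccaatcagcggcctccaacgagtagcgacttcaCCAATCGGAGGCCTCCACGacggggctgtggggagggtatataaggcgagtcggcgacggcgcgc
Hsp90b1: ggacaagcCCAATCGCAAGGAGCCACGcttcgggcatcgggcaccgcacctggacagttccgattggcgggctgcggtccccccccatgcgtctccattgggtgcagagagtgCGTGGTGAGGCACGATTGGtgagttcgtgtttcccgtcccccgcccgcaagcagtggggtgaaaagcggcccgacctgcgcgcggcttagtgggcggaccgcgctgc
Dnajb11: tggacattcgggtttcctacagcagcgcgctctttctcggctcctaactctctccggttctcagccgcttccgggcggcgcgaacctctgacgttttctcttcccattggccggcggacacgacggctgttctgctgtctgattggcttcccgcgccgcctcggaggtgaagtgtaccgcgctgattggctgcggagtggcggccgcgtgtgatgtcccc
Hspa5 held 1 match, from -65 to -47 relative to its RefSeq start, and Hsp90b1 held 2, from -212 to -194 and from -107 to -89. Dnajb11 had no match to these letters in its window. An entry existed for 25 of the 36 genes, with 31 windows in all. Hspa8, Hsp90aa1, Hsp90ab1, Hspa9, Bag4, Cct4, Dnajc5, Dnajc11, Dnajc12, Pfdn1 and Hspd1-ps3 had no entry, so neither element was searched for in them. Of these windows 2 (6.45%) held the element, those of Hspa5 and Hsp90b1, against 39 of 32851 windows of the whole table (0.119%). The share thus describes these 2 genes and not the 36 as a set. The element is named for the stress response of the compartment in which both work, so the share is not an independent result. The heat shock element, searched as GAANNTTC and TTCNNGAA on both strands, was in 5 of the 31 windows (16.1%), which belong to Dnaja1, Dnajb6, Fkbp4 and Hspd1, and in 15.1% of all windows. Matches for this pair of letter strings can overlap one another, as they did in Dnajb6 and Hspd1. A match describes letters only and is not a measured binding site.

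A gene's level in a population is the mean over cells of log2(value + 1), given with the SD between cells. The deposited values were already normalized between cells and carry no read depth. As the level does not account for gene length, it is compared between populations and not between genes. A gene is called higher or lower where its levels in 2 populations differ by at least 2 (a factor of 4 on that scale). This is a rule of size and not a test, and a called difference can be smaller than the SD between cells. No mouse is named for any cell, so each population is 1 sample and no difference has a replicate check. Presence is the share of cells in which a gene is among the 500 highest of that cell, with its exact Clopper-Pearson 95% interval. The interval covers counting error only, and 2 NB cells with fewer than 500 genes above the lowest value of the cell were left out of it. Median genes above that lowest value were 1114 in NB, 1161 in NBL, 1397 in OligNBL, 950.5 in OL and 1187 in O.

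The cell type labels were checked against marker genes. All 11 neuroblast markers, all 10 mature oligodendrocyte markers and all 6 oligodendrocyte progenitor markers were in the table. No gene of the microglial, mural, astrocyte and ependymal marker lists was in it, so those cell types could not be checked. Of the 5 endothelial markers only Pecam1 was measured. The summed level of the mature oligodendrocyte markers ran from 54.8 to 95.7 over O cells (median 68.9) and from 30.2 to 135.02 over OL cells (median 96.2), and had medians of 1.60 in NB, 0.84 in NBL and 0.49 in OligNBL. The summed neuroblast level had medians of 33.2 in NB, 37.6 in NBL, 36.05 in OligNBL, 8.82 in OL and 7.23 in O. The Tomato-gated cells thus carried mature oligodendrocyte RNA and the double-positive cells carried neuroblast RNA, with a summed progenitor level of median 11.4 in OligNBL, 6.72 in O, 4.35 in OL, 2.72 in NBL and 0 in NB. Of 23 dissociation and immediate early response genes 7 were measured, with summed medians of 12.9 in NB, 13.8 in NBL, 11.7 in OligNBL, 8.38 in OL and 5.20 in O. Pecam1 was high in all populations, with levels of 6.54 in NB, 8.59 in NBL, 8.11 in OligNBL, 8.49 in OL and 10.53 in O and presence in 91.4% to 100% of cells. It differed by 3.99 in O against NB, 2.04 in NBL against NB and -2.04 in OL against O. The 7 mitochondrially encoded genes had summed medians of 4.38 in NB, 6.68 in NBL, 9.97 in OligNBL, 10.99 in OL and 15.90 in O, and 3 of them were called higher in O against NB. What part these differences have in the results below was not tested.

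Cells with nearby numbers in their titles had alike chaperone levels. Over the 36 genes, the mean correlation between cells of one population at most 4 numbers apart ran from 0.36 (O) to 0.60 (NBL), and between cells at least 17 apart from 0.14 (NBL) to 0.30 (OL). The labels do not say what the numbers stand for. Levels are therefore also given by block of 8 cell numbers, each block holding at least 3 cells of the population. There were 6 blocks in NB, 4 in NBL, 7 in OligNBL, 3 in OL and 4 in O, named here by their order in number within the population. The numbers of NBL follow those of NB, and those of O follow those of OL, except for a few O and OligNBL cells with low numbers. Levels of several genes ran on across these borders. Among the 8 cells on each side, 13 of the 36 genes differed with the opposite sign to that over all cells in NBL against NB, and 6 in OL against O. Of the 6 calls in NBL against NB 3 stood there and 3 turned, and of the 10 in OL against O 5 stood, 3 fell under the limit and 2 turned. Whether the population labels of cells near these borders are right was not tested, and this bears on both comparisons. Over the 5 comparisons 53 calls were made, of which 30 stood whichever block was left out and 23 were lost without some block. Where a call was lost without a block, that block is named below. With a pseudocount of 10 in place of 1, 26 of the 53 calls stood: Fkbp1a, Hspa8 and Cct7 in NBL against NB, Hspa8, Hsp90ab1 and Hsp90b1 in OL against O, Fkbp1a, Dnajc7, Cct7, Dnajc12 and Dnajb6 in OligNBL against NBL, Cct7, Fkbp3, Hspa8, Hsp90ab1, Hsp90b1, Dnajc11, Dnajc12 and Dnajc7 in OligNBL against OL, and Bag4, Cct7, Hspa5, Hsp90aa1, Hsp90b1, Dnajc7 and Hspd1 in O against NB. In cells with at least 1000 genes 46 stood, and those lost were Fkbp4, Hspa5 and Dnajc24 in OL against O, Bag4, Cct4 and Dnajc24 in OligNBL against OL, and Hspd1 in O against NB.

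**Figure D1:**
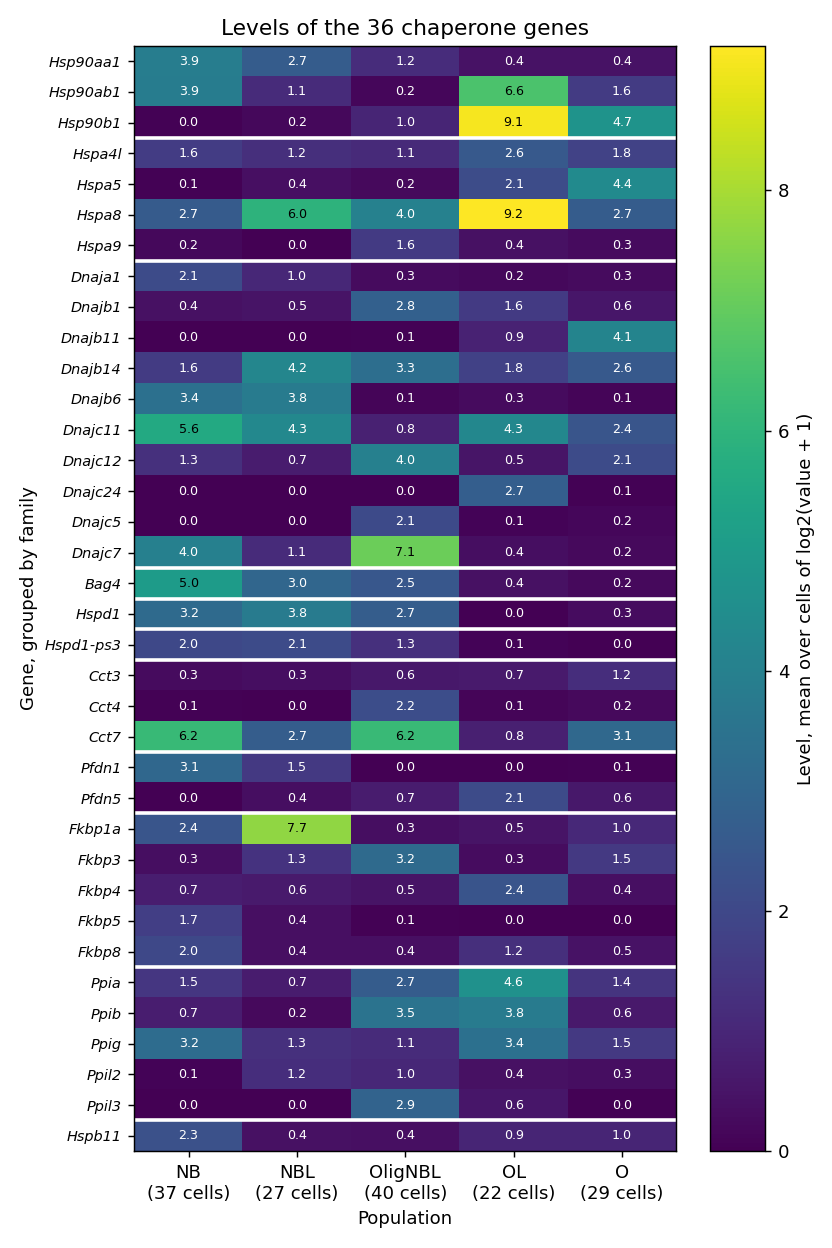
Level of each of the 36 genes (rows, by family) in the 5 populations (columns), as the mean over cells of log2(value + 1) on the colour scale. Hsp90b1 stands at 9.07 in OL and 0.04 in NB, and Dnajc7 at 7.14 in OligNBL and 0.22 in O.

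In NBL against NB, GFP-gated cells of injected and of healthy mice, 3 of the 36 genes were called higher (8.33%, against 9.76% of all 3422 genes) and 3 lower (8.33%, against 8.39%). In OL against O, the same contrast in Tomato-gated cells, 7 were higher (19.4%, against 8.36%) and 3 lower (8.33%, against 7.92%). In OligNBL against NBL, 8 were higher (22.2%, against 12.2%) and 3 lower (8.33%, against 10.3%). In OligNBL against OL, 8 were higher (22.2%, against 13.2%) and 6 lower (16.7%, against 12.2%). In O against NB, the 2 healthy populations, 3 were higher (8.33%, against 12.3%) and 9 lower (25%, against 13.5%). The shares in NBL against NB thus lay near those of the table as a whole. These comparisons share populations, so their counts are not independent of one another.

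Block means of the 2 populations did not overlap for 0 of the 36 genes in NBL against NB (6.43% of all genes), for 10 in OL against O (27.8%, against 15% of all genes), for 5 in OligNBL against NBL (13.9%, against 7.63%), for 9 in OligNBL against OL (25%, against 14.1%) and for 7 in O against NB (19.4%, against 16.5%). The median difference over the 36 genes was -0.08 in NBL against NB (all genes -0.0036), 0.10 in OL against O (-0.10), -0.08 in OligNBL against NBL (0.03), -0.03 in OligNBL against OL (0.13) and -0.09 in O against NB (0.09). Each median was small beside the limit of 2, so the family did not move as one.

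**Figure D2:**
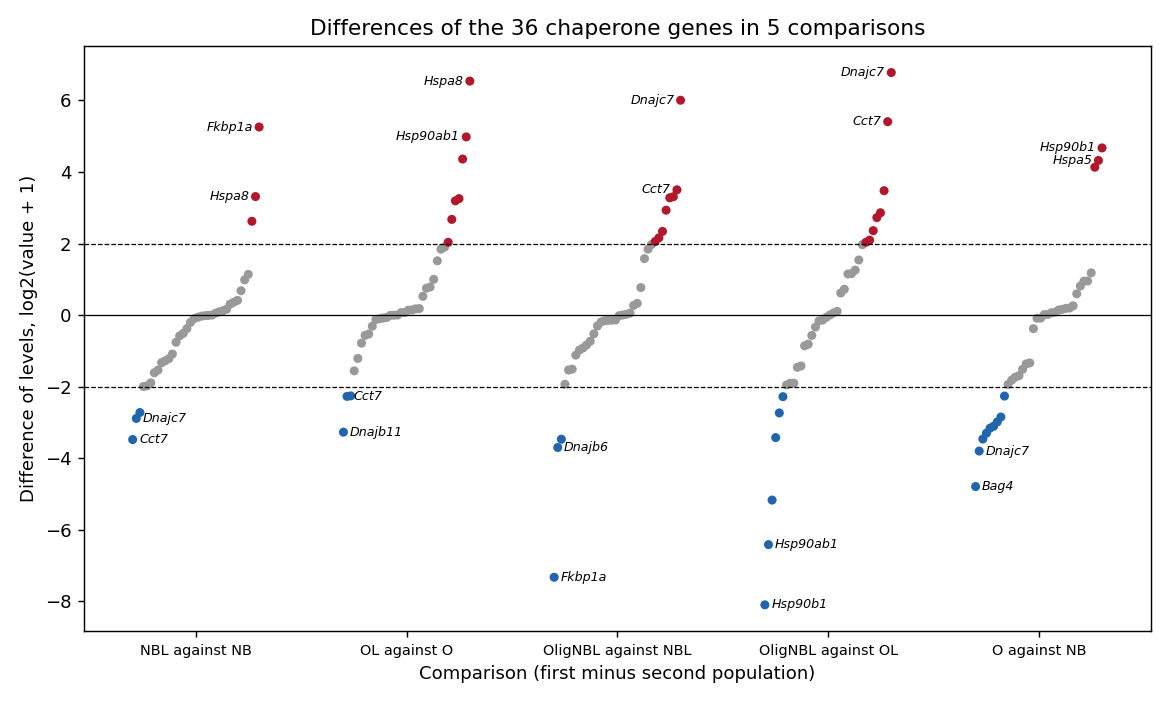
Difference of levels (log2 scale) of each gene in the 5 comparisons, with the limit of 2 either way marked. Of the 36 genes, 26 pass the limit in at least 1 comparison, and most differences lie near 0.

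The endoplasmic reticulum chaperones Hsp90b1, Hspa5 and Dnajb11 were low in NB, NBL and OligNBL and higher in O or OL. The order of O and OL differed from gene to gene. Canx, Pdia3, Pdia6 and P4hb, of the same compartment but outside the symbol rule, had their highest level in OligNBL or NBL. Canx was at 1.33 ± 2.74 (SD, n = 40) in OligNBL, 0.66 in NB, 0.14 in OL and 0.13 in O. Pdia3 was at 1.27 ± 2.31 in OligNBL, 1.06 in NBL, 0.89 in NB, 0.32 in OL and 0.52 in O. Pdia6 was at 1.23 ± 2.80 in OligNBL, 0.17 in OL and 0.00 in O. Canx, Pdia3 and Pdia6 differed by less than the limit of 2, and by less than their SD in OligNBL, in every comparison. P4hb was at 2.34 ± 2.18 (n = 27) in NBL, 0.36 in NB, 0.00 in OL and 0.64 in O. These genes were named with their values known. Manf, given below, was highest in O. Hsp90b1 (GRCm38 chr10:86690209-86705509, minus strand) ran over OL cells from 2.32 through a median of 9.16 to 18.99, and over O cells from 0.00 through 1.35 to 18.99. The highest NB cell was at 1.01, the highest NBL cell at 3.14 and the highest OligNBL cell at 8.82. Every OL cell thus lay above every NB cell, and 2 of 22 OL cells lacked the gene among their 500 highest. Hsp90b1 had a level of 9.07 ± 3.79 (SD, n = 22 cells) in OL, 4.71 ± 5.34 (n = 29) in O, 0.97 ± 1.77 (n = 40) in OligNBL, 0.20 ± 0.74 (n = 27) in NBL and 0.04 ± 0.18 (n = 37) in NB. Presence was seen in 20 of 22 OL cells (90.9%, 95% interval 70.8 to 98.9) and 12 of 29 O cells (41.4%, 23.5 to 61.1), and in 0 of 35 ranked NB cells, with an upper limit of 10.0%.

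The difference of Hsp90b1 was 4.36 in OL against O, -8.10 in OligNBL against OL and 4.67 in O against NB. Each of these calls stood whichever block was left out, yet O was uneven. Its block means ran in number order from 11.45 in the first block to 2.04 in the last, whereas those of OL ran from 8.16 to 10.31. In the 8 cells on each side of the border between OL and O numbers, Hsp90b1 stood at 10.23 in OL and 11.01 in O, a difference of -0.79 with the opposite sign. The block means of OL and O overlapped for this gene.

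Hspa5 (GRCm38 chr2:34771970-34777547, plus strand) differed from Hsp90b1 in which oligodendrocyte population was higher. Its O cells ran from 0.00 through a median of 1.41 to 19.50, and its OL cells from 0.00 through 0.00 to 11.39. The highest cell was at 1.59 in NB, 4.68 in NBL and 2.67 in OligNBL. Outside O and OL, Hspa5 was among the 500 highest in 1 of 27 NBL cells, 0 of 35 NB cells and 0 of 40 OligNBL cells. The level of Hspa5 was 4.39 ± 5.21 (SD, n = 29) in O and 2.13 ± 3.90 (n = 22) in OL, and 0.07, 0.37 and 0.22 in NB, NBL and OligNBL. Hspa5 was present in 11 of 29 O cells (37.9%, 20.7 to 57.7) and 4 of 22 OL cells (18.2%, 5.19 to 40.3). The difference of Hspa5 in OL against O was -2.26, a call lost without any one of 4 blocks, the first and the second of each population: without the first O block, all 6 cells of which had the gene among their 500 highest, the difference was -0.48. In the 8 cells on each side of the border between OL and O numbers the difference was -5.43, with 5.35 in OL and 10.78 in O. Hspa5 was higher in O than in NB by 4.32, and by 2.54 without the first O block.

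Dnajb11 (GRCm38 chr16:22857845-22879634, plus strand), the J-domain partner of Hspa5, was highest in O. Its O cells ran from 0.00 through a median of 3.78 to 15.71, its OL cells from 0.00 through 0.00 to 7.20, and the highest cell of the GFP-gated populations was at 2.13 in OligNBL. Its level was 4.14 ± 3.60 (SD, n = 29) in O, 0.87 ± 1.91 (n = 22) in OL, 0.05 in OligNBL, 0.01 in NB and 0.00 in NBL. Dnajb11 was present in 16 of 29 O cells (55.2%, 35.7 to 73.6) and in 2 of 22 OL cells (9.09%, 1.12 to 29.2). The difference was -3.28 in OL against O and 4.13 in O against NB, the block means did not overlap in either, and both calls stood without any one block.

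The 3 genes were not high in the same cells throughout. Of 29 O cells, 9 had both Hsp90b1 and Hspa5 among their 500 highest, 3 had only Hsp90b1 of this pair and 2 only Hspa5. Of 22 OL cells, 4 had both and 16 had only Hsp90b1. Hspa5 and Dnajb11 were both present in 5 O cells, with 6 that had only Hspa5 of this pair and 11 only Dnajb11. These are counts over cells of 1 sample.

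Ppib (GRCm38 chr9:66060222-66066623, plus strand), the cyclophilin of the same compartment, had another pattern. Its cells ran from 0.00 through a median of 3.61 to 14.52 in OL, through 3.36 to 12.87 in OligNBL and through 0.00 to 3.39 in O. Its level was 3.84 ± 3.19 (SD, n = 22) in OL, 3.50 ± 3.55 (n = 40) in OligNBL, 0.73 ± 1.48 (n = 37) in NB, 0.64 ± 1.00 (n = 29) in O and 0.22 ± 0.81 (n = 27) in NBL. OL and OligNBL differed by much less than their spread, and so did NB and O. Ppib was higher in OL than in O by 3.19 and in OligNBL than in NBL by 3.28, and block means did not overlap in either comparison. At the border of OL and O numbers the difference was 1.99, just under the limit.

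**Figure D3:**
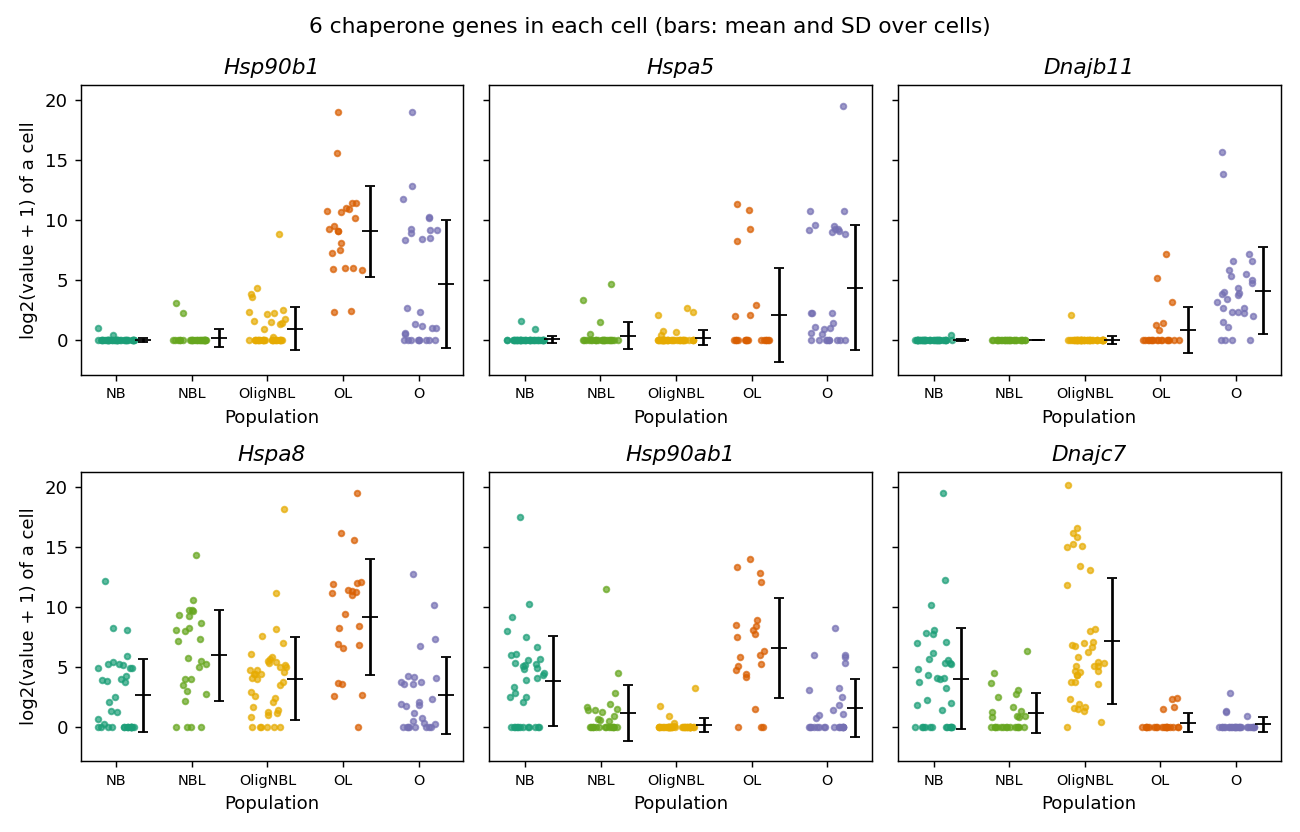
Value of each cell, log2(value + 1), for Hsp90b1, Hspa5, Dnajb11, Hspa8, Hsp90ab1 and Dnajc7 in the 5 populations, with the mean and SD over cells. Hsp90b1 is at or near 0 in NB and NBL and above 2 in every OL cell, and Hspa8 and Dnajc7 are spread widely within each population in which they are high.

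Hspa8 (GRCm38 chr9:40800984-40810087, plus strand), the constitutive cytosolic Hsp70, was higher in the samples of injected mice in both gates. Its cells ran from 0.00 through a median of 10.20 to 19.50 in OL and through 1.84 to 12.76 in O. In NBL they ran from 0.00 through 5.75 to 14.35, in NB through 1.34 to 12.14 and in OligNBL through 4.25 to 18.14. All populations thus overlapped cell by cell. The level of Hspa8 was 9.20 ± 4.84 (SD, n = 22) in OL, 5.96 ± 3.78 (n = 27) in NBL, 4.03 ± 3.45 (n = 40) in OligNBL, 2.66 ± 3.21 (n = 29) in O and 2.65 ± 3.04 (n = 37) in NB. It was present in 18 of 22 OL cells (81.8%, 59.7 to 94.8) and 10 of 29 O cells (34.5%, 17.9 to 54.3), and in 19 of 27 NBL cells (70.4%, 49.8 to 86.2) and 15 of 35 NB cells (42.9%, 26.3 to 60.6).

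The difference of Hspa8 was 6.54 in OL against O, where block means ran from 8.66 to 10.85 in OL and from 1.71 to 4.03 in O. At the border of the 2 numberings it was 4.33, with 7.43 in the last 8 OL cells and 3.10 in the first 8 O cells beyond them. The difference was 3.31 in NBL against NB, where block means overlapped. NB blocks reached 5.34 in the last block, the numbers next to NBL, and NBL began at 3.80 in its first. In the 8 cells on each side of that border Hspa8 was lower in NBL, at 3.80 against 5.41 in NB, a difference of -1.60 with the opposite sign. In OligNBL against OL the difference was -5.18.

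Hsp90ab1 (GRCm38 chr17:45567775-45573271, minus strand), the constitutive cytosolic Hsp90, went opposite ways in the 2 gates. Cells ran from 0.00 through a median of 6.18 to 14.02 in OL, through 0.00 to 8.29 in O, through 4.12 to 17.50 in NB, through 0.00 to 11.53 in NBL and through 0.00 to 3.23 in OligNBL. The gene was high in most OL and NB cells and in few cells of the other populations. Its level was 6.58 ± 4.16 (SD, n = 22) in OL, 3.87 ± 3.75 (n = 37) in NB, 1.60 ± 2.41 (n = 29) in O, 1.14 ± 2.34 (n = 27) in NBL and 0.16 ± 0.59 (n = 40) in OligNBL. It was present in 18 of 22 OL cells (81.8%), 21 of 35 NB cells (60%, 42.1 to 76.1), 5 of 29 O cells (17.2%, 5.85 to 35.8), 2 of 27 NBL cells (7.41%, 0.91 to 24.3) and 0 of 40 OligNBL cells, with an upper limit of 8.81%.

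Hsp90ab1 was higher in OL than in O by 4.98, with block means of 6.64 to 7.86 in OL and 0.93 to 2.35 in O, and by 3.62 in the cells next to the border. The difference in NBL against NB was -2.73, and it was -1.93, under the limit, without the last NB block. Hspa8 and Hsp90ab1 were both among the 500 highest in 18 of 22 OL cells, and neither was in the other 4. In OligNBL, by contrast, 23 of 40 cells had Hspa8 and 0 had Hsp90ab1. The difference of Hsp90ab1 in OligNBL against OL was -6.42, with block means that did not overlap. That in O against NB was -2.27, and -1.47 without the last NB block.

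Hsp90aa1 (GRCm38 chr12:110690605-110702728, minus strand), the stress-inducible cytosolic Hsp90, was highest in NB and NBL. Its cells ran from 0.00 through a median of 2.57 to 17.75 in NB and through 2.19 to 8.04 in NBL, and its highest cell was at 12.20 in OligNBL, 3.09 in OL and 3.84 in O. Its level was 3.91 ± 4.60 (SD, n = 37) in NB and 2.69 ± 2.69 (n = 27) in NBL, which differed by less than their spread, against 1.15 in OligNBL, 0.44 in O and 0.43 in OL. It was lower in O than in NB (difference -3.47, and -2.62 without the fourth NB block). Hspa4l, an Hsp110 relative, and Hspa9, the mitochondrial Hsp70, were called in no comparison. Their levels ran from 1.10 (OligNBL) to 2.57 (OL) and from 0.00 (NBL) to 1.58 (OligNBL). The closely similar sequences of Hsp90aa1 and Hsp90ab1 make the split of reads between them uncertain. The inducible genes Hspa1a and Hspa1b were not among the 36 genes that the rule found, so no level can be given for them.

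Among the J-domain genes, which start the ATPase of Hsp70, Dnajc7 (GRCm38 chr11:100582818-100620168, minus strand) had the widest range between populations. Dnajc7 encodes a co-chaperone with tetratricopeptide repeats that binds both Hsp70 and Hsp90. Its cells ran from 0.00 through a median of 5.35 to 20.19 in OligNBL, through 4.00 to 19.50 in NB and through 0.00 to 6.34 in NBL. Its highest cell was at 2.40 in OL and 2.87 in O. The level was 7.14 ± 5.25 (SD, n = 40) in OligNBL, 4.03 ± 4.21 (n = 37) in NB, 1.13 ± 1.66 (n = 27) in NBL, 0.36 ± 0.80 (n = 22) in OL and 0.22 ± 0.63 (n = 29) in O.

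Dnajc7 was present in 32 of 40 OligNBL cells (80%, 64.4 to 90.9), 20 of 35 NB cells (57.1%, 39.4 to 73.7), 3 of 27 NBL cells (11.1%, 2.35 to 29.2), and 0 of 22 OL and 0 of 29 O cells, with upper limits of 15.4% and 11.9%. Its share of cells was thus larger in OligNBL than in NBL in these samples, whose gates differ by the second reporter. The difference was 6.01 in OligNBL against NBL and 6.78 in OligNBL against OL. Its lowest OligNBL block, 4.87, lay above the highest block of NBL (2.35) and of OL (0.59), and both calls stood without any one block. It was -3.80 in O against NB. In NBL against NB it was -2.89, and -1.99 without the last NB block, in which all 7 cells had the gene.

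Dnajc11, a protein of the mitochondrial membranes, was lowest in OligNBL. It was present in 32 of 35 NB cells (91.4%) and 2 of 40 OligNBL cells (5%), with levels of 5.58 ± 3.06 (SD, n = 37) in NB, 4.31 ± 3.58 (n = 27) in NBL, 4.26 ± 4.86 (n = 22) in OL, 2.42 ± 2.67 (n = 29) in O and 0.83 ± 1.57 (n = 40) in OligNBL. The difference of Dnajc11 was -3.43 in OligNBL against OL, -3.16 in O against NB and -3.47 in OligNBL against NBL, where it was -1.84 without the first NBL block. Dnajb6, which holds back protein aggregation, was high in some blocks of the GFP-only gate and near the lowest value in others. Block means of Dnajb6 ran from 0.00 to 7.31 in NB and from 0.35 to 6.91 in NBL. Its cells had medians of 2.23 in NB and 3.66 in NBL, and its highest cell was at 2.93 in OligNBL, 2.40 in OL and 1.54 in O. Dnajb6 had levels of 3.41 ± 3.92 (n = 37) in NB and 3.82 ± 4.15 (n = 27) in NBL, against 0.12 in OligNBL, 0.28 in OL and 0.11 in O. The difference was -3.70 in OligNBL against NBL and -3.30 in O against NB, and block means overlapped in both.

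Dnajc24, which helps to make the diphthamide residue of elongation factor 2, was seen almost only in OL, where its cells ran from 0.00 through a median of 2.17 to 14.17. Its level in OL was 2.74 ± 3.43 (SD, n = 22), and its highest cell elsewhere was at 1.85 in O. Dnajc24 was uneven within OL: all 5 cells of the first block had it among their 500 highest, 4 of 8 of the second and 0 of 7 of the third. The difference in OL against O, 2.67, was 1.54 without the first of these blocks, and 0.29 in the 8 cells on each side of the border. That in OligNBL against OL was -2.74, and -1.61 without it.

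Of the other J-domain genes, Dnajc12 stood at 4.01 ± 5.36 (SD, n = 40) in OligNBL, 3.31 above NBL and 3.48 above OL, with 2.09 in O and 1.28 in NB. Dnajb14, anchored in the endoplasmic reticulum membrane, was 4.23 ± 4.01 (n = 27) in NBL and 1.61 ± 2.36 (n = 37) in NB, a difference of 2.62. Dnajb1, the main inducible partner of Hsp70, had a level of 2.81 ± 3.94 (n = 40) in OligNBL against 0.47 in NBL, a difference of 2.34 that was 1.69 without the last OligNBL block. Dnajb1 did not reach the limit in either lesion comparison, at 1.56 in OL and 0.56 in O, and 0.47 in NBL and 0.42 in NB. Dnajc5, the synaptic vesicle chaperone CSP, was at 2.06 ± 2.95 (n = 40) in OligNBL and at 0.00 in every NBL cell. Its difference of 2.06 was 1.26 without the fifth OligNBL block, all 6 cells of which had it, and the call was also lost without the sixth. Dnaja1 was called in no comparison and had its highest level, 2.11, in NB.

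Bag4, which releases clients from Hsp70, was higher in GFP-gated cells. Its cells had medians of 5.07 in NB, 3.45 in NBL and 0.82 in OligNBL, and 0.00 in OL and O. The level of Bag4 was 5.04 ± 3.61 (SD, n = 37) in NB and 0.24 ± 0.70 (n = 29) in O, a difference of -4.80 in O against NB with block means that did not overlap. It was 2.52 in OligNBL and 0.42 in OL, a difference of 2.09 that fell under the limit without the second or the third OligNBL block or the first or the last OL block, and was 1.19 without the third OligNBL block.

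Hspd1, the mitochondrial chaperonin Hsp60, was at 0.00 in every OL cell, and its cells ran from 0.00 through a median of 3.35 to 12.14 in NBL, through 1.06 to 12.87 in OligNBL and through 0.00 to 16.20 in NB. Its level was 3.85 ± 2.95 (SD, n = 27) in NBL, 3.17 ± 4.95 (n = 37) in NB, 2.72 ± 3.34 (n = 40) in OligNBL and 0.31 ± 0.80 (n = 29) in O. The difference of Hspd1 in OligNBL against OL was 2.72, and 1.98 without the last OligNBL block. That in O against NB was -2.85, and -1.41 without the third NB block. Hspd1-ps3, its processed pseudogene, had levels of 1.98 in NB, 2.10 in NBL, 1.26 in OligNBL, 0.10 in OL and 0.03 in O. Of the 12 NB cells with Hspd1 among their 500 highest, 8 also had Hspd1-ps3. In NBL 6 of 12 such cells had both, and in OligNBL 3 of 15. Reads of Hspd1 and its pseudogene are near copies, so the split between them is uncertain.

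In the cytosolic folding route from prefoldin to CCT, Cct7 (GRCm38 chr6:85451514-85468475, plus strand) was the subunit with calls in all 5 comparisons. Its cells ran from 0.00 through a median of 3.61 to 20.19 in NB and through 2.21 to 20.19 in OligNBL, through 1.85 to 14.77 in NBL, through 0.00 to 15.86 in O and through 0.00 to 9.46 in OL. Its level was 6.21 ± 5.98 (SD, n = 37) in NB, 6.23 ± 6.48 (n = 40) in OligNBL, 3.10 ± 4.21 (n = 29) in O, 2.72 ± 3.46 (n = 27) in NBL and 0.82 ± 2.27 (n = 22) in OL. NB and OligNBL did not differ beyond their spread, nor did O and NBL. The called differences of Cct7 given below were also smaller than the larger SD of their 2 populations.

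Cct7 had very uneven blocks. In NB they ran from 1.23 in the last block to 12.98 in the fourth, in OligNBL from 0.83 to 12.03, and in O they reached 8.42 in the last block, all 6 cells of which had it. Its difference in NBL against NB, -3.48, was -1.90 without the fourth NB block, and 3.02, with the opposite sign, in the 8 cells on each side of the border. In OL against O it was -2.28, and -0.89 without the last O block. At the border it was 0.25. In O against NB it was -3.11, and -1.53 without the fourth NB block. The differences in OligNBL against OL (5.41) and against NBL (3.50) stood without any one block.

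Cct4 was at 0.00 in every NBL cell and had a level of 2.16 ± 4.57 (SD, n = 40) in OligNBL, where 7 of 40 cells had it among their 500 highest, 4 of them among the 5 cells of the fourth block. Without that block its difference was 1.27 against NBL (2.16 with it) and 1.15 against OL (2.04 with it). Both calls were also lost without the fifth OligNBL block, and the second of them without the first or the second OL block. Cct3 was called in no comparison, with levels from 0.25 in NB to 1.21 in O. Of the prefoldin subunits, Pfdn1 was high in the third NB block, all 6 cells of which had it. It had levels of 3.06 ± 4.64 (n = 37) in NB and 1.51 ± 1.71 (n = 27) in NBL, and of at most 0.07 elsewhere. Its difference in O against NB was -2.99, and -1.54 without that NB block. Pfdn5 was called in no comparison and had its highest level, 2.11 ± 3.40 (n = 22), in OL.

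**Figure D4:**
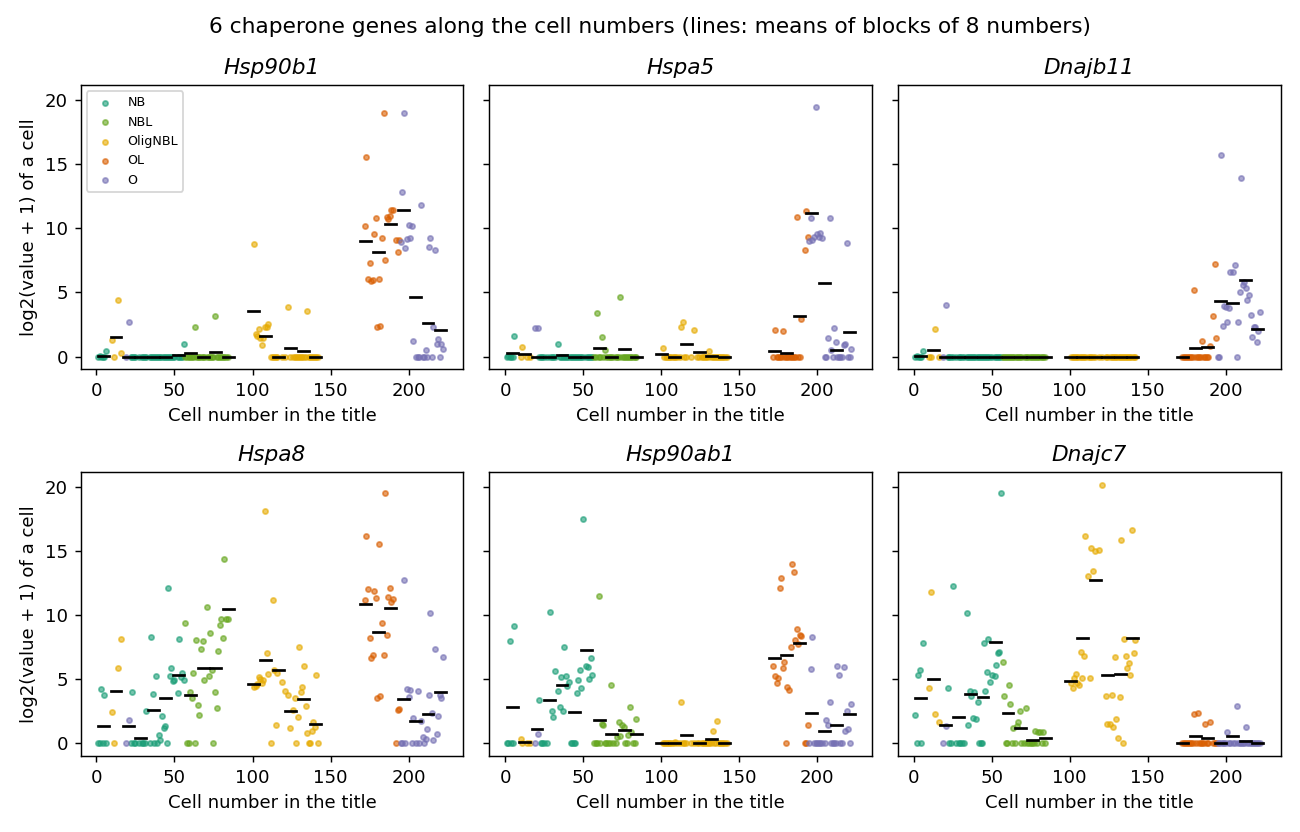
Value of each cell, log2(value + 1), against the cell number in its title, coloured by population. Hsp90b1 is high on both sides of the border between OL and O numbers, with block means of 10.31 in the last OL block and 11.45 in the first O block. Hspa5 has block means of 3.16 in the last OL block and 11.22 in the first O block.

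Among the FK506-binding isomerases, Fkbp1a (GRCm38 chr2:151542483-151561692, plus strand), the small FKBP12 that binds ryanodine and TGF-beta receptors, was highest in NBL. NBL cells ran from 0.00 through a median of 5.85 to 17.50, NB cells through 0.65 to 15.11 and OligNBL cells through 0.00 to 3.84. Its level was 7.67 ± 5.52 (SD, n = 27) in NBL, 2.41 ± 3.32 (n = 37) in NB, 1.04 ± 2.13 (n = 29) in O, 0.48 ± 1.83 (n = 22) in OL and 0.34 ± 0.86 (n = 40) in OligNBL. It was present in 19 of 27 NBL cells (70.4%, 49.8 to 86.2), 13 of 35 NB cells (37.1%, 21.5 to 55.1) and 1 of 40 OligNBL cells (2.5%, 0.063 to 13.2).

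The difference of Fkbp1a in OligNBL against NBL was -7.33, and the lowest NBL block, 3.46, lay above the highest OligNBL block, 1.01. In NBL against NB it was 5.26 and stood without any one block. The block means overlapped, however, and in the 8 cells on each side of the border it was -1.14, with 3.46 in NBL and 4.60 in NB. The high NBL cells were those of the second and the third block, where 7 of 7 and 7 of 8 cells had the gene.

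Fkbp4 (FKBP52), which sits in Hsp90 complexes of hormone receptors, had a level of 2.40 ± 3.04 (SD, n = 22) in OL and 0.37 ± 0.84 (n = 29) in O. Its difference, 2.03 (1.03 at the border), fell under the limit without any one of the same 4 blocks as for Hspa5 and was 1.57 without the first OL block. Fkbp3, a nuclear isomerase, was at 3.18 ± 5.14 (n = 40) in OligNBL and 0.32 ± 0.82 (n = 22) in OL, a difference of 2.86 that was 1.70 without the fourth OligNBL block. Fkbp5, a glucocorticoid-responsive co-chaperone of Hsp90, was called in no comparison, with 1.70 ± 3.40 (n = 37) in NB and 0.00 in every OL and O cell. Fkbp8 was likewise not called, with levels from 0.37 in NBL to 1.98 in NB.

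Of the cytosolic and nuclear cyclophilins, Ppia (GRCm38 chr11:6415443-6419817, plus strand), the abundant cyclophilin A, ran over OL cells from 0.00 through a median of 4.49 to 13.82 and over O cells through 0.00 to 5.60. The level of Ppia was 4.64 ± 3.34 (SD, n = 22) in OL, 2.69 ± 3.11 (n = 40) in OligNBL, 1.47 ± 2.24 (n = 37) in NB, 1.39 ± 1.79 (n = 29) in O and 0.71 ± 1.17 (n = 27) in NBL. Its difference in OL against O was 3.26, with block means of 3.23 to 6.41 in OL and 0.56 to 1.81 in O. Many processed copies of Ppia lie in the mouse genome, so its count is uncertain where reads fit several. Ppig, a nuclear cyclophilin with an SR-rich tail, was at 3.41 ± 4.22 (n = 22) in OL and 1.13 ± 2.19 (n = 40) in OligNBL. Its difference of -2.28 was -0.35 without the last OL block. Ppil3, found with the spliceosome, was at 2.93 ± 4.17 (n = 40) in OligNBL and 0.00 in every NBL cell. The difference of Ppil3 was 2.93 against NBL (1.79 without the sixth OligNBL block) and 2.36 against OL (1.22 without that block), the latter call also being lost without the fifth OligNBL block. Ppil2 was not called, with levels of 0.09 to 1.22, and Hspb11 was not called either, with its highest level, 2.29, in NB.

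Each cell held only a few of the 36 genes near its top. The number among a cell's 500 highest ran from 3 through a median of 8 to 12 in NB, from 2 through 6 to 12 in NBL, from 3 through 6 to 9 in OligNBL, from 2 through 8 to 9 in OL and from 1 through 4 to 8 in O. Over all pairs of a gene and a ranked cell, 21.8% were present in NB, 17.5% in NBL, 17.5% in OligNBL, 19.3% in OL and 11.4% in O, where 500 genes are 14.6% of the table. O was thus the population with the fewest, although its levels of Hsp90b1, Hspa5 and Dnajb11 were higher than in NB. Genes above the lowest value of the cell were more numerous in O than in OL (medians 1187 and 950.5), and what part this has in the difference between them was not tested.

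**Figure D5:**
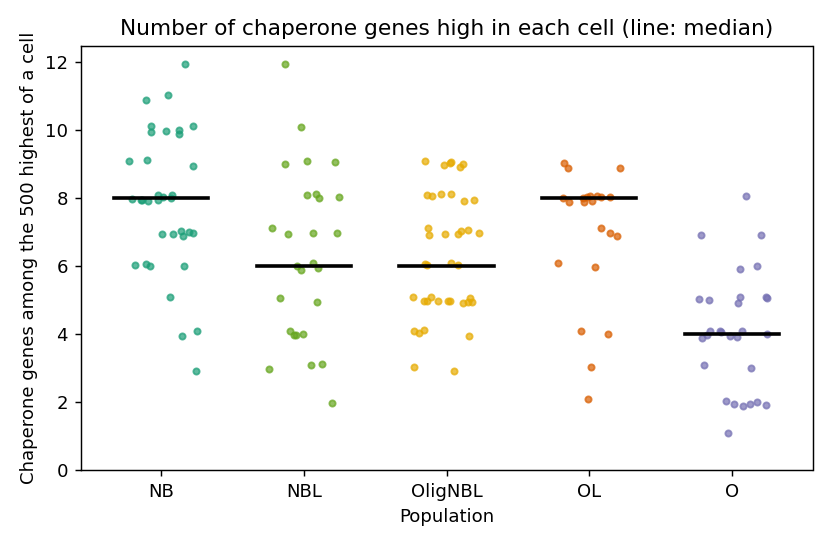
Number of the 36 genes among the 500 highest genes of each cell (points), by population, with the line at the median. The median is 8 in NB and OL, 6 in NBL and OligNBL, and 4 in O.

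Of 60 related chaperone genes outside the symbol rule, 25 were measured. In NBL against NB 1 was called higher (4%, against 9.76% of all genes) and 3 lower (12%, against 8.39%), and in OL against O 1 (4%, against 8.36%) and 4 (16%, against 7.92%). In OligNBL against NBL they were 1 (4%, against 12.2%) and 3 (12%, against 10.3%), in OligNBL against OL 2 (8%, against 13.2%) and 2 (8%, against 12.2%), and in O against NB 6 (24%, against 12.3%) and 3 (12%, against 13.5%). The small heat shock protein Cryab, abundant in oligodendrocytes, was at 8.65 ± 4.55 (SD, n = 22) in OL and 7.75 ± 4.89 (n = 29) in O, and at 0.01 in NB and in OligNBL. Co-chaperones of Hsp90 and Hsp70 did not share one pattern. Ahsa1 and Stip1 were highest in NB: Ahsa1, which stimulates the Hsp90 ATPase, was at 5.11 ± 6.19 (n = 37) in NB, 0.74 in NBL and 0.12 in O, and Stip1 (HOP), which bridges Hsp70 and Hsp90, at 3.66 ± 4.07 (n = 37), 1.18 and 0.89. In contrast, Cdc37, which brings kinases to Hsp90, was highest in OL (3.12 ± 3.76, n = 22, against 0.74 ± 1.25 in NB). Ptges3, the p23 co-chaperone, was highest in O (2.56 ± 3.86, n = 29, against 0.19 ± 0.63 in NB). Cdc37 and Ptges3 were chosen after their values were seen. St13, an Hsp70 partner, was at 4.34 ± 3.33 (n = 27) in NBL and 3.68 ± 5.09 (n = 37) in NB, which differed by less than their spread. Tcp1, the first subunit of CCT, had 4.92 ± 4.83 (n = 37) in NB, 1.78 in NBL, 1.62 in OL, 0.79 in OligNBL and 0.77 in O. It shared with Cct7 the order of NB and NBL but not the high level in OligNBL, where Cct7 was at 6.23.

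Further genes of the unfolded protein response did not share one pattern. Manf, an endoplasmic reticulum stress factor, was at 2.69 ± 3.60 (SD, n = 29) in O and 0.32 ± 1.11 (n = 22) in OL. Its difference was -2.37 in OL against O, as for Hspa5 and Dnajb11 in sign. Ddit3 was likewise lower in OL, at 0.22 ± 1.05 (n = 22), than in O, at 2.40 ± 3.31 (n = 29). It stood at 0.03 in OligNBL and 0.00 in NB and NBL. Xbp1, a transcription factor of that response, was at 5.37 ± 5.44 (n = 27) in NBL, 2.71 in NB and 1.43 in OligNBL, and so was highest in a population where Hspa5 and Hsp90b1 were near 0. Atf4 was at 2.38 ± 3.58 (n = 22) in OL and 0.04 in OligNBL. Sgta, a co-chaperone for tail-anchored proteins, was at 6.10 ± 5.66 (n = 40) in OligNBL, 0.99 in NBL and 2.19 in OL.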

How the data were processed

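Single-cell RNA of 155 cells was analysed from the authors' deposited table of 3422 genes. The submitters' processing notes name kallisto, limma and build GRCm38, with no versions. The name of the table says estimated counts, but the values the authors deposited behaved as a normalized signal: the 8 highest values were equal in all cells (relative tolerance 1e-06), column totals ran from 5155899 to 5161091 and 0% of values above 0 were whole numbers. No count model was therefore used, and depth is unknown.

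Levels were means of log2(value + 1), a pseudocount of 1 that understates differences of low genes. As the labels name no mouse, each population was 1 sample and no test was made. The members, gene lists and limits were chosen with earlier results of these data known. Named genes were, in each comparison, up to 6 each way with the largest difference in presence among those past the limit of 2, plus up to 2 per family present in most cells and a fixed set of well-known members; 29 of 36 were named so, and the others are given by levels or ranges. Doublets were not called. All genes were placed with GENCODE vM21. The planned search of protein sequences was not run. The level step was run on simulated data of 3422 genes with 200 shifted by 3: median shifts recovered were 2.96 (NBL against NB), 3.00 (OL against O), 3.00 (OligNBL against NBL), 3.03 (OligNBL against OL) and 3.00 (O against NB). The shift was added on the log2 scale to values shuffled over cells, which removes the likeness of neighbouring cells. The run thus checks the calculation and not whether a call can be relied on. Alternatives covered the pseudocount, the limit, weighting of blocks, genes per cell, cell numbers and blocks left out. The tools were pandas 2.3.3 and numpy 2.4.6 under Python 3.11.15, with intervals from scipy 1.17.1 and plots from matplotlib 3.10.9.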

Additional observations from a re-analysis of the deposited data

Results flagged for a closer look

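Hsp90ab1 was called in opposite directions between injected and healthy mice in the 2 gates. Its level was lower in NBL (1.14) than in NB (3.87), a difference of -2.73, and higher in OL (6.58) than in O (1.60), a difference of 4.98. The second difference minus the first was 7.71. It was picked out because both differences passed the limit of 2 with opposite sign. Cells of each population overlapped those of its partner, and the difference between the gates was not tested, since each population is 1 sample. Without the last NB block the first difference was -1.93.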

How the results depend on the processing

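With a pseudocount of 10 the genes called lower numbered 1 in NBL against NB (3 with a pseudocount of 1), 0 in OL against O (3) and 5 in O against NB (9), and those called higher 3 in OL against O (7), 3 in OligNBL against NBL (8) and 4 in OligNBL against OL (8). Of the 53 calls 26 stood, since a larger pseudocount shrinks differences of low genes most, and 46 stood in cells with at least 1000 genes. The shares of all genes called were then 3.95%, 3.92% and 7.07% for the lower and 3.45%, 4.27% and 4.88% for the higher calls, in the same order. With a limit of 1 the lower calls numbered 12 in NBL against NB (33.3%, against 17.3% of all genes), 5 in OL against O (13.9%, against 15.7%), 7 in OligNBL against NBL (19.4%, against 20.3%), 11 in OligNBL against OL (30.6%, against 21.1%) and 16 in O against NB (44.4%, against 20.7%), and the higher calls 13 in OligNBL against OL (36.1%, against 27.3%). The 3 lower calls in NBL against NB became 7 in cells with at least 1000 genes (12.6% of all genes), 7 without cells numbered up to 21 (10%) and 5 without the 2 NB cells of fewer than 500 genes (9.29%), an alternative chosen after seeing the data; the cause was not tested.

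In the 8 cells nearest in number on each side of a border, also chosen after seeing the data, NBL against NB had 5 higher calls (6.98% of all genes) and 6 lower (11.7%). Among genes called over all cells, those with the opposite sign there were Cct7 (3.02), Fkbp1a (-1.14) and Hspa8 (-1.60) in NBL against NB, and Cct7 (0.25) and Hsp90b1 (-0.79) in OL against O. Genes not called over all cells that passed the limit there with the opposite sign included Dnajc11 in NBL against NB (2.45, against -1.28). The cause was not tested. With blocks of 12 cell numbers, which leave fewer blocks, block means did not overlap for 15 genes in OligNBL against NBL (41.7%, against 24.8% of all genes) and 17 in OligNBL against OL (47.2%, against 36.1%). Taking 300 highest genes in place of 500 gave 13.9% present in NB, 9.67% in NBL, 10.6% in OligNBL, 13.3% in OL and 7.09% in O.

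Leaving out 1 block at a time, genes called higher and lower numbered 3 to 4 and 1 to 8 in NBL against NB, 7 to 9 and 2 to 3 in OL against O, 7 to 10 and 3 to 4 in OligNBL against NBL, 6 to 10 and 6 to 9 in OligNBL against OL, and 3 to 3 and 8 to 13 in O against NB. The lower calls in NBL against NB were 8 without the first NBL block, 7 without the first NB block, 5 without the second or the fifth NB block, and 1 without the last NB block. No paired analysis was possible because no number in the labels ties a cell of one population to a cell of another and no result comes from a test.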
